A study of Mus musculus with 4 samples.

Results

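Peaks of TBX5 binding lay close together in some megabases of the mouse genome, and these dense megabases are described here. TBX5 is a T-box transcription factor of the forelimb bud, and its binding was measured by ChIP-seq, in which DNA fragments held by a protein are pulled down with an antibody and sequenced. The deposited list of reproducible peaks gives each peak a summit, the base of strongest signal. Each chromosome was divided into fixed windows of 1 Mb, and the members were chosen by the number of summits alone: every peak in a window with 20 or more summits. The rule found 44 windows with 1198 peaks, out of 11224 peaks in the list. The 44 were 2.13% of the 2066 windows that held any summit, and they carried 10.7% of the peaks. The number of summits is therefore a description of how the windows were picked, while signal and reproducibility score were not used to pick them.

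The study used forelimbs of wild-type embryos of outbred ICR mice at embryonic day 10.5. Chromatin was precipitated with a polyclonal TBX5 antibody in 2 libraries, and 2 libraries of input chromatin served as background. Whole forelimb tissue was used, so the cell type in which a site was bound is not known from the list. Peaks were deposited once for both ChIP libraries, without any value of either library or of input. No value could therefore be compared over replicates, peaks and windows are not replicates of the experiment, and no p-value is given. Read depth is unknown from the list.

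T-box factors bind a short shared DNA motif through the domain that gives the family its name, and TBX5 acts largely at enhancers, which can lie far from the gene they control. In the early forelimb bud TBX5 is required for outgrowth, which it starts through the growth factor gene Fgf10. Genes that direct development often lie in large stretches of DNA with many enhancers and few other genes, and the HoxA and HoxD clusters, which pattern the limb along its length, are textbook cases.

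Positions are as deposited. The library names and the submitters' processing notes give the build as mm10 (GRCm38), but 72 summits on 5 chromosomes lay past the last protein-coding gene that RefSeq places there on GRCm38.p6. The list fits the earlier build, mm9, so windows are named by developmental genes known to lie there on mm9. These names come from general knowledge of the mouse map and not from an annotation. They were attached after the windows were known, so they say nothing about how often dense windows hold such genes. Of the 44 windows, 25 are described under a gene or gene cluster, some of them as the neighbour of a named window, and 18 by position only. The remaining window is counted in all totals and not described. No exon, intron or distance to a gene is given, and no sequence under a peak is printed, since no mm9 sequence was used here.

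Windows with any summit held a median of 4 summits, with quartiles of 2 and 7. The dense windows held 20 to 54, with a median of 25. Of these, 21 held 20 to 24 summits, 12 held 25 to 29, and 11 held 30 or more. Those 11 alone carried 417 peaks. The distribution had no gap at the threshold: 13 windows held 18 summits, 10 held 19, 4 held 20 and 6 held 21.

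**Figure D1:**
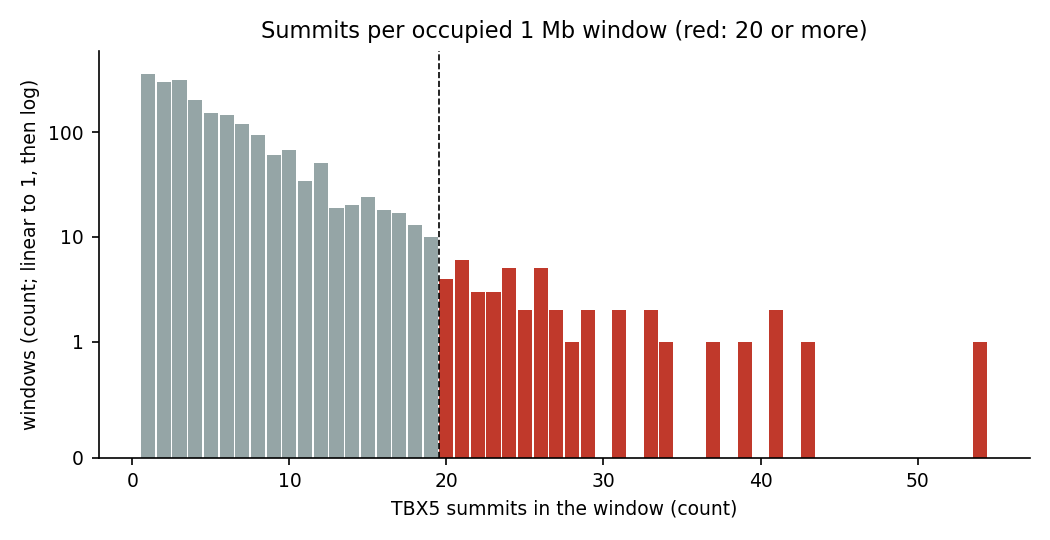
Number of occupied 1 Mb windows (vertical axis, log scale above 1) by the number of TBX5 summits they hold (horizontal axis). Bars in red are the 44 windows with 20 or more summits, and the single window of 54 stands apart from the next at 43.

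The fullest window lay at 55 to 56 Mb of chromosome 18, where mm9 places Zfp608, a zinc finger protein gene. It held 54 summits, 11 more than any other window. Of its 54 peaks, 10 had a stronger summit within 500 bp. When overlapping or touching intervals were joined, it held 46 sites, against 41 in the second fullest window, that of HoxA. In RefSeq's gene order on GRCm38.p6, Zfp608 stands between Csnk1g3 and Gramd3. The 54 signal values ran from 5.63 to 177.8 with a median of 27.9, close to the median of 27.2 in the whole list, so this window stood out by the number of its peaks and not by their typical strength. Its strongest peak, at 55060127 to 55060442, lay near the lower edge, 17 of the 54 summits fell within 100 kb at that end, and 28 of the 54 lay in the first 500 kb. The preceding megabase was dense too, with 24 summits, a median signal of 35.0 and a strongest peak of 180.8. Together these neighbouring megabases held 78 summits.

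The HoxD cluster lay in the window at 74 to 75 Mb of chromosome 2, with 41 summits, and the following megabase was dense too, with 39. Hoxd9 to Hoxd13 encode homeodomain factors that pattern the limb along its length and across its width. The signals of the first megabase ran from 6.52 to 266.0, with a median of 28.8, and those of the second from 6.47 to 198.2, with a median of 31.9. The value of 266.0, at 74218964 to 74219317, was the highest of the entire list and 9.23 times the median of its window. Summits were packed unevenly: 17 of the 41 lay within a single stretch of 100 kb that began 487 kb into the first megabase, and in the second 31 of 39 lay in the first 500 kb, with a largest gap of 248 kb. The last summit of the first megabase and the first summit of the second were 24.6 kb apart, so the edge between them fell inside 1 run of peaks. When a 1 Mb window was allowed to start anywhere, the fullest placement of the whole list was here, with 62 summits.

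The HoxA cluster, whose posterior genes Hoxa9 to Hoxa13 act with the HoxD genes in limb segments, lay in the second fullest window, at 52 to 53 Mb of chromosome 6. It held 43 summits with signals from 6.03 to 80.97 and a median of 30.2. Its strongest peak ranked 547th in the list, the lowest rank of a strongest peak among the 6 fullest windows. The highest score was reached by 19 of the 43 peaks (44.2%), near the 45.4% of all peaks in the list. The preceding megabase held 20 summits, the minimum for a dense window, but its strongest peak reached 152.2. The HoxC cluster, in the megabase that ends at 103 Mb of chromosome 15, also held 20 summits. Its median signal of 21.6 was the lowest of all 44 windows, and 13 of its 20 summits lay within 100 kb. Of its 20 peaks, 6 (30%) had a stronger summit within 500 bp, the highest share of the 44 windows. Such peaks can be shoulders of the same site, and they count in both values. Joining overlapping or touching intervals left 14 sites in this window. Over the Hox windows, counts thus ran from 20 to 43 and median signals from 21.6 to 31.9.

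Genes of the T-box family, to which TBX5 itself belongs, lay in 3 dense windows. The window of Tbx18 at 87 to 88 Mb of chromosome 9 held 31 summits with signals from 10.4 to 141.4. Its median signal of 46.2 was the highest of the 44 windows, 27 of its 31 peaks (87.1%) had the highest score, and 12 of 31 were in the highest 10% of signal of the list. The window of Tbx15, a factor needed for normal skeletal growth, lay at 99 to 100 Mb of chromosome 3. It held 27 summits with a median signal of 41.1, and 20 of them (74.1%) had the highest score. The window of Tbx2 and Tbx4, at 85 to 86 Mb of chromosome 11, held 29 summits with a median signal of 27.3. Tbx4 is the close relative of Tbx5 that acts in the hindlimb, and Tbx2 stands next to it in RefSeq's order. By these medians the Tbx18 and Tbx15 windows stood in the upper part of the range and the Tbx2 and Tbx4 window at the level of the list.

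Several windows held transcription factor genes of the limb mesenchyme, the tissue that forms skeleton and connective tissue. The window of Prrx1, a homeodomain factor widely used as a marker of that tissue, in the megabase that ends at 166 Mb of chromosome 1, held 41 summits with signals from 7.78 to 121.5 and a median of 35.2. Of these, 25 (61%) had the highest score. Zfp503, a zinc finger regulator, lay in the window at 22 to 23 Mb of chromosome 14 with 37 summits. The following megabase was dense too, with 33. Both medians were 38.2, and 50 of the 70 peaks (71.4%) had the highest score, which made this the pair of adjoining dense windows with the highest share. Meis2, a homeodomain factor of the proximal limb, lay in the window that ends at 116 Mb of chromosome 2 with 33 summits and a median signal of 31.0. The preceding megabase held 22 summits with a higher median of 38.1. Shox2, a homeobox gene required for the upper arm skeleton, lay in a window at 66 to 67 Mb of chromosome 3 with 31 summits, signals from 6.48 to 162.2 and a median of 32.4.

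**Figure D2:**
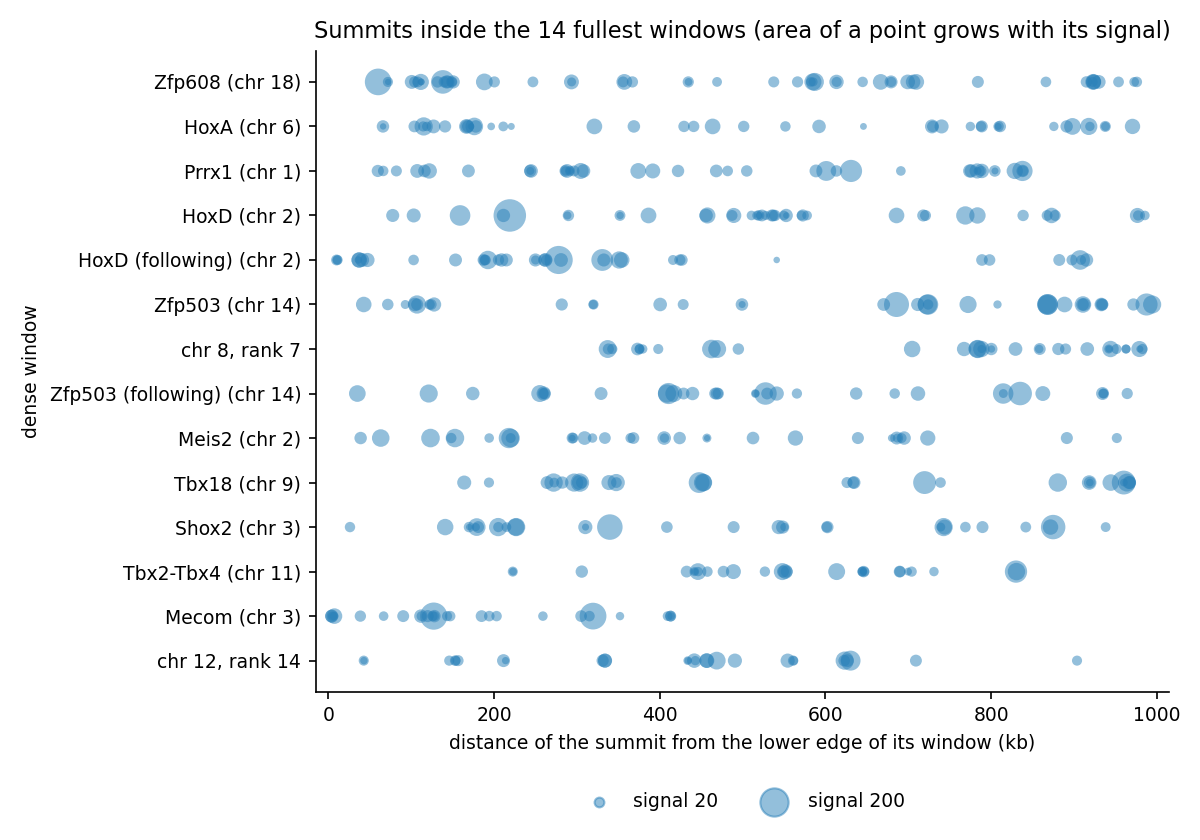
Position of every summit inside the 14 fullest windows, as distance in kb from the lower edge of the window (horizontal axis), 1 row per window, with the area of a point growing with the deposited signal value. Summits of the Mecom window all lie in its first 500 kb, and those of the first HoxD window crowd in a stretch near its middle.

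Genes of limb axis patterning and of BMP signalling lay in smaller dense windows. The window of Hand2, a factor upstream of Shh in the posterior limb bud, at 59 to 60 Mb of chromosome 8, held 24 summits with a median signal of 35.5 and a strongest peak of 179.1. Its adjoining windows held 2 and 1 summits, so this megabase stood alone. Irx3 and Irx5, homeobox genes that follow Fto in RefSeq's order, lay at 94 to 95 Mb of the same chromosome, with 26 summits and a median of 34.1. The peak at 94237775 to 94238123 there had a signal of 239.3 and was the 4th strongest of the list. Lmx1b, the homeobox gene that sets dorsal identity, lay at 33 to 34 Mb of chromosome 2 with 23 summits and a median of 24.4. Only 6 of its 23 peaks had the highest score, the lowest share of all 44 windows at 26.1%. Msx2, a homeobox gene that responds to BMP signals, lay at 53 to 54 Mb of chromosome 13 with 21 summits and a median of 28.9. Bmpr1b, a BMP receptor of the early skeleton, lay in the window that ends at 142 Mb of chromosome 3 with 23 summits and a median of 24.8.

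The remaining windows with a recognised gene had other roles. Mecom, a zinc finger transcription factor gene, lay at 30 to 31 Mb of chromosome 3 with 29 summits. All 29 fell within 410 kb, the shortest span among the 44 windows, with none in the last 500 kb. The fixed edge cut this run, however. The preceding window held 12 summits, and a 1 Mb window at 29487136 to 30487135 held 39, these 29 among them. The median score of 754 in the Mecom window was the lowest of the 44, although its strongest peak reached 185. Nr2f2, a nuclear receptor gene, lay at 77 to 78 Mb of chromosome 7 with 26 summits and a median of 25.8. Tle3, a corepressor gene, lay at 61 to 62 Mb of chromosome 9 with 26 summits and a median of 39.6, and, as in the Hand2 window, no peak had a stronger summit within 500 bp. Jarid2, which encodes a partner of the Polycomb complex, lay at 44 to 45 Mb of chromosome 13 with 21 summits and a median of 29.5.

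Of the 18 windows given by position only, the fullest was at 27 to 28 Mb of chromosome 8. It held 34 summits with signals from 8.48 to 84.1 and a median of 28.3, and 23 of them lay in the last 500 kb, next to a window of 15. A window at 111 to 112 Mb of chromosome 11 held 27 summits with a median of 37.8, of which 22 were in its last 500 kb, next to a window of 18. In these examples the crowd of summits leaned towards an edge. The window at 103 to 104 Mb of chromosome 7 was the most lopsided of the windows without a gene name, with all 24 summits in its last 500 kb and a median of 36.3.

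Very strong single peaks marked 2 of the windows given by position. At 4 to 5 Mb of chromosome 6, the peak at 4507130 to 4507585 had a signal of 254.6, the 2nd highest of the list and 10.9 times the median of its 21 peaks (23.4). At 132 to 133 Mb of chromosome 5, the peak at 132331151 to 132331488 had a signal of 221.9, the 9th highest of the list and 9.16 times the median of its 26 peaks (24.2). In both windows the typical peak was weaker than the list median of 27.2.

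The other windows given by position held 20 to 26 summits. On chromosome 3 there were 24 at 55 to 56 Mb and 24 at 86 to 87 Mb, with medians of 27.0 and 28.5. Chromosome 7 had 25 at 143 to 144 Mb (27.5), and chromosome 2 had 26 at 18 to 19 Mb (median signal 25.9). Chromosome 13 had 25 at 32 to 33 Mb (29.7), and chromosome 10 had 23 at 120 to 121 Mb (median signal 23.2). These medians lay on both sides of the list median. Chromosome 4 held 22 at 105 to 106 Mb, with a median signal of 37.5, and 20 at 13 to 14 Mb, with 27.8. On chromosome 8 the window at 117 to 118 Mb held 22, with a median of 25.4, and on chromosome 5 the window at 13 to 14 Mb held 21, with 27.6. Chromosome 6 held 3 more: 21 summits at 30 to 31 Mb (median signal 33.3), 21 at 100 to 101 Mb (27.9) and 20 at 94 to 95 Mb (26.2). Their strongest peaks were 67.8, 65.2 and 130.5, and 65.2 was the lowest strongest peak of any dense window.

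Every one of the 44 windows held at least 1 peak in the highest 10% of signal, that is, at or above 61.3, and the strongest peak of every window had the highest score of 1000. With 20 or more peaks to a window, such a peak is likely in any window of that size. The ratio of the strongest signal to the window median ran from 2.04 to 10.9, with a median of 3.88. Among the 100 strongest peaks of the list, 22 were members (22%, 95% exact binomial interval 14.3 to 31.4%, for counting error only), and among the 1000 strongest 169 were (16.9%, 14.6 to 19.4%), against 10.7% of all peaks. Of the 10 strongest, 4 were members, in the HoxD, Irx3 and Irx5, chromosome 6 and chromosome 5 windows named above.

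Member peaks were somewhat stronger and more reproducible than the rest. Their median signal was 30.3, with quartiles of 21.2 and 47.7, against 26.9, with quartiles of 20.2 and 39.1, among the 10026 other peaks, a difference of 3.46. The lower quartiles thus nearly coincided, and the gap lay in the upper part of the distribution. The signal value is the strength the peak caller gave a peak, on a scale the sources used here do not state. Of the members, 57.5% were above the list median, against 50% of all peaks by construction, and 15.4% were in that highest class, against 10% of all. No test is attached to these differences, and the 2 sets overlapped over nearly their whole range, 5.37 to 266.0 for members and 5.29 to 252.9 for the others. With each window given equal weight the difference was 2.04, and with the window edges moved by 500 kb it was 2.02.

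**Figure D3:**
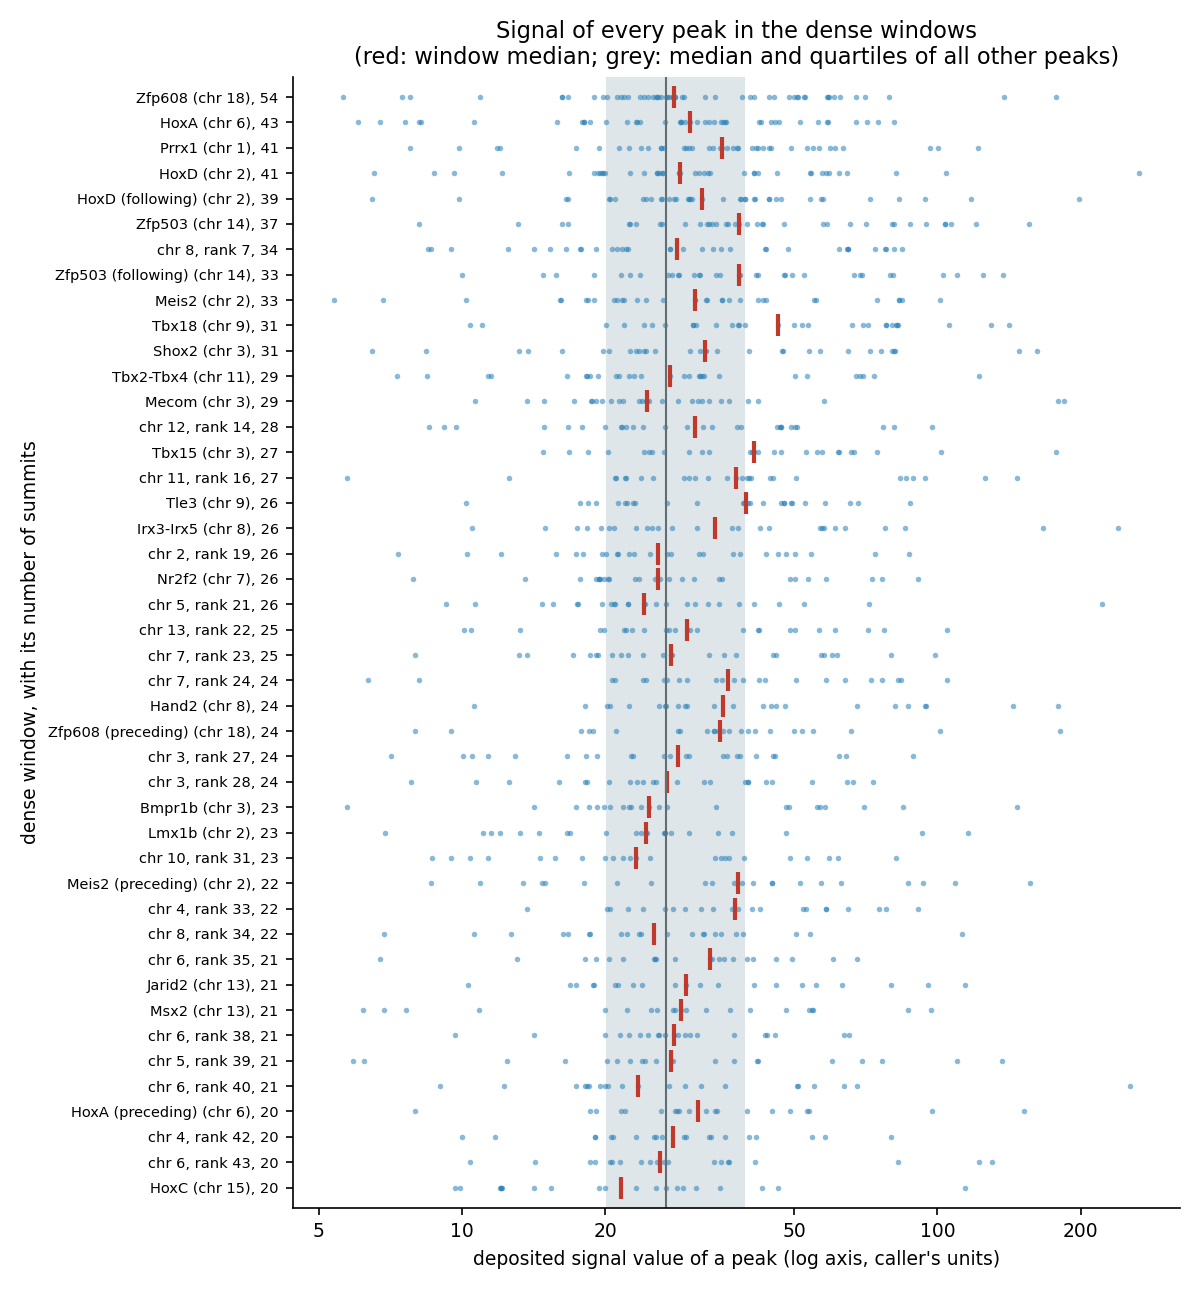
Deposited signal value of each of the 1198 member peaks (horizontal axis, log scale, in the peak caller's units), 1 row per dense window in order of its number of summits, which follows the name. Red ticks are window medians, and the grey line and band are the median of 26.9 and the quartiles of all other peaks. Window medians lie between 21.6 and 46.2, and only those of the Tbx18, Tbx15 and Tle3 windows are above the band.

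The score derives from the irreproducible discovery rate (IDR), which estimates from the ranks in both replicates how likely a peak is not to recur, and 1000 is the highest score. Of the member peaks 644 (53.8%, exact binomial interval 50.9 to 56.6%) had the score of 1000, against 45.4% of all peaks in the list and 44.4% (43.4 to 45.3%) of the others. The median score was 1000 for members and 930 for the others, and the lower quartiles were 740 and 694. With windows counted again on peaks at an IDR of 0.01 or below, both medians were at the ceiling of 1000, and the difference was 0. Without peaks that have a stronger summit within 500 bp, which may be listed on the shoulder of another peak, 56.3% of 1056 members and 46.6% of 9029 others had the highest score. IDR works on ranks of peak strength, so the difference in score is not separate from that in signal.

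Median signal was higher from class to class with the number of summits in a window, with no step at the threshold, and the share at the highest score followed less evenly. Peaks in windows of 2 to 4 summits had a median signal of 26.3, those in windows of 5 to 9 had 26.7, of 10 to 14 had 27.5 and of 15 to 19 had 28.3. Inside the threshold the medians were 28.6 for 20 to 24 summits, 29.7 for 25 to 29 and 32.9 for 30 or more. Lone peaks, the only summit of their window, departed from this order with 27.7. None of these lone peaks had a stronger summit within 500 bp, against 7.84% of peaks in windows of 2 to 4 and 12.2% in windows of 30 or more. The class medians were not adjusted for this. The share of peaks with the highest score was 40.8% in windows of 2 to 4 and 50.2% in windows of 15 to 19, then 52.5%, 48.8% and 59% in the 3 dense classes. The interval was 47.5 to 52.9% for windows of 15 to 19 and 54.1 to 63.8% for windows of 30 or more. These intervals treat peaks as independent, which neighbours are not, so they do not set the fullest class apart. That class held only 11 windows, whose shares ran from 44.2% for HoxA to 87.1% for Tbx18. Between the 10 windows of 19 summits and the 4 of 20, just outside and inside the threshold, median signals were 28.8 and 27.0, and 52.1% and 55% of peaks had the highest score.

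**Figure D4:**
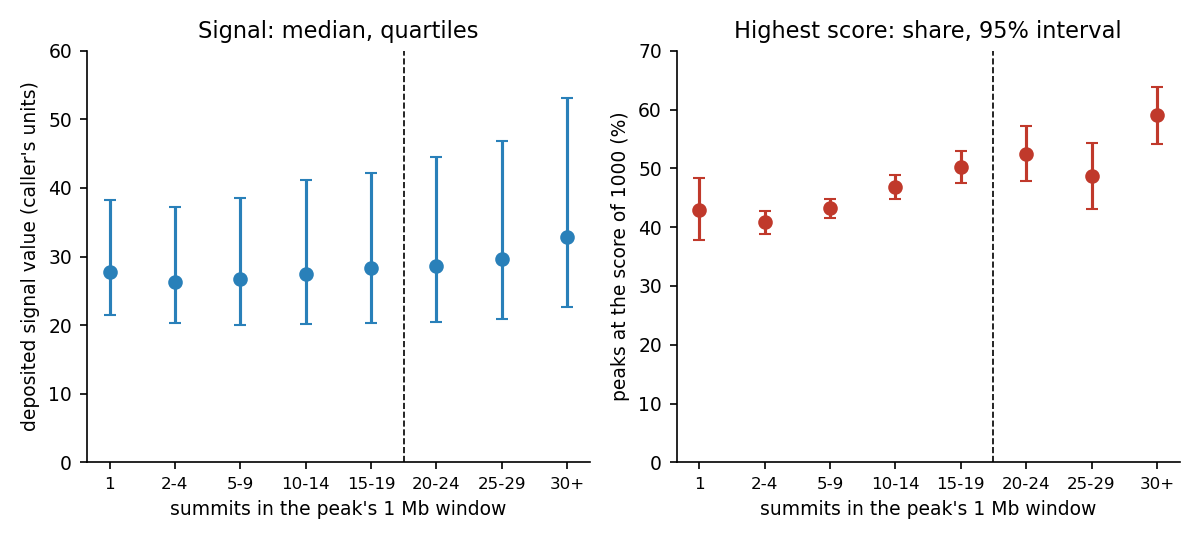
Left, median and quartiles of the deposited signal value by the number of summits in the peak's window. Right, share of peaks at the highest score with its 95% exact binomial interval. The dashed line marks the threshold of 20 summits, across which both measures run on without a step, from 28.3 to 28.6 in median signal.

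Signals inside a dense window were widely spread, with an SD of 0.92 on the log2 scale (median over windows). The means of the 44 windows had an SD of 0.23, and the typical standard error of such a mean was 0.18. The order of most windows by signal is therefore not resolved by 20 to 54 peaks each. In 32 of the 44 windows (72.7%) the median was above the list median, against 54.9% of the 273 windows with 10 to 19 summits. In 24 of the 44 windows the median score was 1000, a score held by 45.4% of all peaks. Peaks pooled over windows of 15 to 19 summits also had a median score of 1000, so this does not set the dense windows apart.

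Counts were lower just beyond the window. The windows were picked by a high count, so a drop on both sides comes in part with the choice. The same holds for a high share of summits in the middle megabase. For 15 of the 44, a 1 Mb window moved by up to 500 kb held at least 5 more summits, so fixed edges can cut a run. The windows directly before and after a dense one had medians of 8 and 6.5 summits, those 2 Mb away 4 and 5.5, and those 5 Mb away 3 on both sides, the same as the median of all windows from the first to the last occupied one of each chromosome. Empty windows are counted in all of these medians. Around dense windows, a position beyond the end of a chromosome was also counted as empty, as 5 Mb before the chromosome 6 window at 4 to 5 Mb. Of the 44, 18 had fewer than 10 summits in both adjoining windows and 26 had 10 or more in at least 1 of them. A dense window held a median of 61.7% of the summits in its own and both adjoining megabases. The lowest share was 27.6%, for the window before Zfp608, which has the fullest window as its neighbour. Among the windows described, the highest share was the 88.9% of the Hand2 window. High shares were also found elsewhere: the Tbx2 and Tbx4 window held 85.3%, the chromosome 6 window at 30 to 31 Mb 84% and the HoxC window 83.3%.

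**Figure D5:**
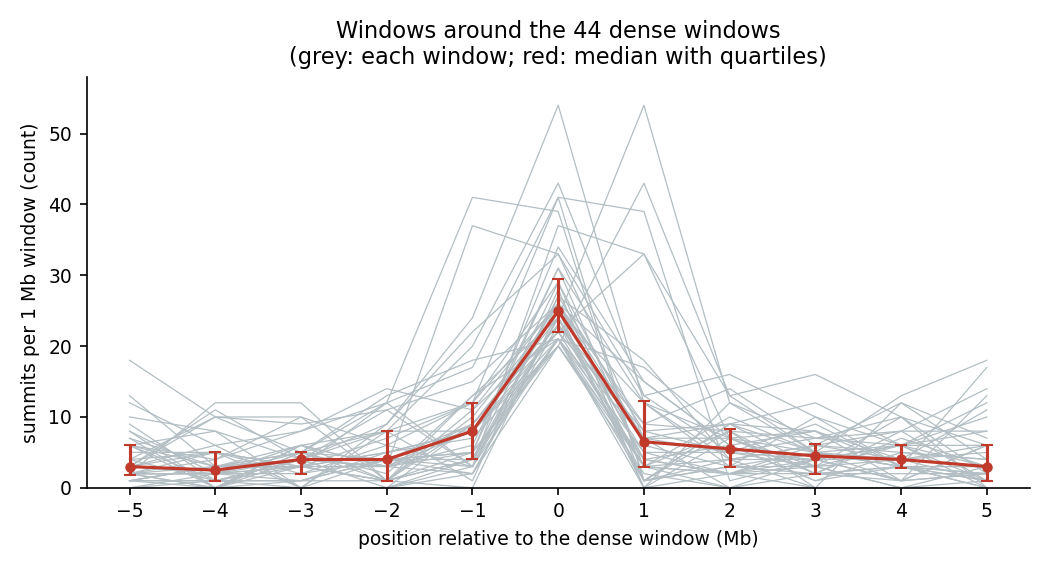
Summits per 1 Mb window (vertical axis) from 5 Mb before to 5 Mb after each of the 44 dense windows (horizontal axis). Grey lines are single windows and red points the median with quartiles, which is 25 in the dense window by choice and 8 and 6.5 in the windows next to it.

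Dense windows touched each other in 5 places, at HoxD, Zfp503, Zfp608, Meis2 and HoxA, and no run was longer than 2 windows. The pairs held 80, 70, 78, 55 and 63 summits, and the distance across the shared edge was 24.6, 40.9, 61.3, 80.8 and 155 kb. Beyond the pairs the counts were 12 and 1 around HoxD, 3 and 13 around Zfp503, 9 and 12 around Zfp608, 9 and 7 around Meis2, and 8 and 13 around HoxA. Of these pairs HoxD had the sharpest upper end, from 39 summits to 1. Peaks in the 78 adjoining windows that were not dense themselves had a median signal of 28.1 and the highest score in 47.7% (exact binomial interval 43.4 to 52.1%) of 526 peaks, between the values of members and of the 9500 peaks farther away, 26.8 and 44.2%.

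Inside the windows summits were unevenly placed. From first to last summit the windows spanned 410 to 995 kb, with a median of 902 kb, and the largest gap between neighbouring summits was 57.4 to 391 kb. The fullest stretch of 100 kb held a median of 33.3% of a window's summits, from 19.2% in the chromosome 5 window at 132 to 133 Mb to 65% in both the HoxC window and the window before HoxA. Another summit lay within 10 kb of 65.9% of member peaks and of 39.9% of the others, a contrast that the choice of crowded windows brings with it. A stronger summit within 500 bp, which can mark the shoulder of the same site, was present for 11.9% of members and 9.94% of the others. When overlapping or touching intervals were joined, the 1198 member peaks became 1065 sites, and 32 of the 44 windows still had 20 or more.

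Chromosomes 2, 3 and 6 had 6 dense windows each, with 19%, 18.5% and 22.8% of their peaks in them, against 10.7% of all peaks. Chromosome 8 had 4. Chromosomes 16, 17, 19 and X had none, among 86, 72, 51 and 55 occupied windows. On any 1 of these chromosomes, 0 is near the 2.13% of all occupied windows that were dense. Differences between chromosomes were not tested. Windows just below the threshold included one at 120 to 121 Mb of chromosome 5, where mm9 places Tbx5 itself and Tbx3, with 19 summits, a median signal of 30.3 and 57.9% at the highest score. Membership of such windows rests on 1 summit. Counting peaks at an IDR of 0.01 or below left 13 dense windows, and letting windows start at any summit gave 89 that do not overlap.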

How the data were processed

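The authors deposited 1 peak list in the 10-column narrowPeak layout, without a header, for 2 TBX5 ChIP libraries of forelimbs at embryonic day 10.5. Libraries were sequenced as single-end reads of 75 bp, per the labels' protocols. The submitters' processing notes name FastQC and mm10. The aligner, peak caller and any pooling are not given in the sources used here. Deposited values used were the IDR score (540 is what its usual scaling gives at 0.05), the signal value, whose scale is not stated, and the −log10 q-value. Other deposited columns (start, end, summit offset) gave 1-based positions.

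Summits were counted per 1 Mb window with pandas 2.3.3 and NumPy 2.4.6 under Python 3.11.15. SciPy 1.17.1 gave the intervals, and matplotlib 3.10.9 was used for plots. The counting was tested on simulated data. Intervals are exact binomial at 95%, cover counting error only and treat peaks as independent, which neighbours are not. Members, names and measures were chosen with earlier results of these data known. Loci with a name were picked after the windows were known, in place of a planned rule that needed an mm9 annotation. Gene starts per window and motif shares under peaks were planned, and were not computed because no mm9 genome or annotation was used here. The details of 1 dense window are not reported here.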

Additional observations from a re-analysis of the deposited data

How the results depend on the processing

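Of 45 alternative values, 26 kept their direction and stayed within a factor of 1.5 of the reported value or, for the share at the highest score, within its interval, and 19 moved. None changed sign, and 1 difference became 0. The number of dense windows and of their peaks, 44 and 1198, was 126 and 2559 with a threshold of 15 summits, 23 and 737 with a threshold of 25, and 13 and 345 at an IDR of 0.01 or below, which leaves fewer peaks to count. Windows that may start at any summit, an alternative chosen after seeing the data, gave 89 and 2340. With edges moved by 500 kb the count was 56 windows and 1414 peaks, of which 656 were also members (54.8% of the members, 46.4% of the moved set), so membership depends on where the edges fall. The difference in median signal, 3.46, was above 0 in all 10 alternatives, at 2.02 with moved edges, 2.04 with windows weighted equally and 5.19 at an IDR of 0.01 or below. The difference in median score, 70, was above 0 in 9 of 10. Leaving out peaks near a stronger summit gave 41, and joining overlapping intervals gave 40. The difference was 46 at a q-value of 0.05 or below and 22 against windows of 10 to 19 summits. At an IDR of 0.01 or below it was 0, with both medians at the ceiling of 1000. The median of members was at that ceiling in the main setting and in each of these. These differences therefore follow the median of the other peaks alone. The share of members at the highest score, 53.8%, was 57.3% both without peaks near a stronger summit and with intervals joined. It was 81.7% at an IDR of 0.01 or below, which removes low scores. In these settings the dense windows were counted again on the peaks left. Those sets held 843 peaks without peaks near a stronger summit and 853 with intervals joined, each in 32 windows. Among the original members without such peaks the share was 56.3%. For signal and score, the joined, q-value, IDR and 10 to 19 alternatives were also chosen after seeing the data. Without the densest window the 3 values were 3.64, 70 and 53.9%. Alternatives for gene starts and motifs were not run. No paired analysis was possible because neither replicate has values of its own here, which also kept any replicate from being left out. Without read depth, sites missed for lack of reads cannot be counted.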

Other observations

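On the 4 chromosomes without a dense window, the fullest fixed windows were at 63 to 64 Mb of chromosome 16 with 19 summits, at 86 to 87 Mb of chromosome 17 with 18, at 14 to 15 Mb of chromosome 19 with 17 and at 49 to 50 Mb of X with 12. The chromosome 16 window had a median signal of 29.5 and a strongest peak of 189.2, and 68.4% of its peaks had the highest score. On chromosome 19 the fixed edges cut through the crowded stretches. A window of 1 Mb at 59498416 to 60498415 held 31 summits with a median signal of 29.7, and another at 55550671 to 56550670 held 29 with a median of 32.96. On chromosome 16 a 1 Mb window at 62964431 to 63964430 held 20 summits, and on chromosome 17 one at 83498786 to 84498785 held 21.

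Of the 89 windows placed at any start, 48 contained no member peak. The fullest of these were the first of the chromosome 19 stretches and one at 180462410 to 181462409 of chromosome 1, both with 31 summits. Chromosome 14 had one at 67851335 to 68851334 with 27, in which the median signal was 22.7 and the strongest peak 184.7. The region before the Prrx1 window, at 163490789 to 164490788 of chromosome 1, held 26 with a median signal of 27.1. These placements were looked for after the fixed windows were known.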
